A study of Macaca fascicularis with 20 samples.

Results

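Solute carriers are membrane proteins, numbered by family under the gene prefix SLC, that move sugars, amino acids, ions, vitamins, nucleotides and metals across the plasma membrane, the mitochondrial inner membrane and the membranes of lysosome, endoplasmic reticulum and Golgi. In lymphocytes, amino acid and glucose carriers of the plasma membrane feed growth and effector function, and mitochondrial carriers link the cytosol to respiration and haem synthesis. The genes described here are the SLC genes of the cynomolgus macaque (Macaca fascicularis) with a probe well above background on every array. Members were thus chosen by measured signal: each gene was represented by its probe of highest mean signal, with probes assigned to genes through the RefSeq gene table of the species. Of 261 SLC genes with a matched probe, 153 met the rule, among 12530 genes with a matched probe in all and 7562 that met the same detection rule. By family, these 153 members comprised 28 amino acid and peptide carriers, 24 inorganic ion carriers, 24 mitochondrial carriers and 22 sugar and monocarboxylate carriers. A further 21 carried organic ions, bile acids or lipids, 11 nucleotide sugars or acetyl-CoA, 10 zinc, 6 nucleosides, vitamins or choline, and 4 other metals or haem. Of the others, SLC4A1AP and SLC7A6OS bear an SLC name without being carriers, and SLC67A1 was assigned to no group.

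Natural killer (NK) cells and B cells were sorted from thawed spleen suspensions of cynomolgus macaques and were not stimulated. NK cells, gated as NKG2A+ CD8a+ cells without CD3, CD14, CD20 or HLA-DR, were split by surface CD27 and CD11b into 4 subsets. Double-low cells (low for both) and CD27 single positives (CD27+ CD11blo) had 4 arrays each, and CD11b single positives (CD27lo CD11b+) and double positives 5 each. B cells (HLA-DR+ CD20+) gave 2 arrays, both from females, labelled 5 and 18 years old. Labelled donors of the NK arrays were of both sexes and between 4 and 18 years old, and replicate 2 of each NK subset has no age. Replicate 3 of the 4 NK subsets carries 4 different ages, from 9 to 12 years. The donor label used below joins origin, sex and age. The 4 arrays of replicate 3 were taken as a single donor despite their ages. Arrays that share a donor label may come from the same animal, so the number of animals may be below the number of arrays. The donor label of B cell replicate 1 is on no other array. With the donor label as a block, only B cell replicate 2 is thus set against NK cells. Where donors are shared, p-values measure the spread between sorts as well as between animals. The main fit has no donor term and counts such arrays as independent, so its p-values may be too small. At an adjusted p under 0.05 in limma, 362 of 12384 genes differed between NK and B cells. With the donor block, which gives B cell replicate 1 no weight, 84 did.

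Each value is the log2 of the processed signal, less the array's own 75th percentile, so that a value of 0 is the level of that percentile and levels of different probes are not compared with one another. The 75th percentile lay between 180.0 and 1897.4 units of intensity, with double-positive replicate 4 (180.0) and double-low replicate 4 (199.6) the dimmest arrays, and precision is limited by how few arrays each group has. Of 14 NK markers measured, 11 were higher in NK cells, and 7 of 10 B cell markers were lower, in limma's test across all genes, which follows the labels. No member was saturated on any array. The arrays stood on 3 slides, of which the second held both B cell arrays and the third only CD11b+ NK arrays.

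Between NK and B cells, 2 of the 153 members differed, and both were lower in NK cells: SLC45A3, which codes for prostein, a sugar transporter first described in prostate, and SLC25A37, which codes for mitoferrin 1, the carrier that brings iron into mitochondria. By the probe used for each gene, no member was higher in NK cells at an adjusted p under 0.05 in limma. With an unadjusted p under 0.05 in limma, 35 were higher and 7 lower. The share of members called, 1.31%, stood beside 2.92% of the 12384 genes tested and 2.17% of the genes detected on all arrays. At the unadjusted threshold the shares were 27.5% of members, 22.7% of all genes tested and 22.6% of those detected on all arrays. The median difference, NK minus B cells, was 0.55 over the members and 0.36 over all genes. It was positive for 109 members and negative for 44, beside 7320 positive and 5064 negative of all genes tested. The shares of members at the adjusted and at the unadjusted threshold are not far from those of all genes. Among all genes, 213 were called higher and 149 lower, a split that became 89 higher and 163 lower with quantile normalization, which also moved the median of all genes to 0.18. The same 2 members were called on both scales.

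SLC45A3 gave values of 1.75 and 1.16 in the 2 B cell arrays. In double-low cells it stood at -2.56, -2.87, -3.18 and -2.26, and in CD27 single positives at -3.96, -3.27, -3.24 and -3.45. In double positives it stood at -3.36, -3.55, -3.06, -2.40 and -4.23, and in CD11b single positives at -2.71, -2.84, -3.07, -4.15 and -3.12. All 18 NK arrays lay below both B cell arrays, with no overlap, and the 4 NK subsets overlapped one another. The difference was -4.63 ± 0.46 (log2, limma standard error), or 24.8-fold lower in NK cells, with an adjusted p of 6.82e-06 in limma. A second probe of the gene gave -4.79 (adjusted p = 1.37e-05, limma). With the slide as a block the difference was -4.50 (adjusted p = 5.26e-05), and on the slide of the B cell arrays alone it was also -4.50 (adjusted p = 0.0171, limma). With the donor label as a block it was -4.43 (adjusted p = 0.0124).

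SLC25A37 gave 2.28 and 2.23 in B cells. It stood at -0.61, 0.25, -0.25 and 0.57 in double-low cells and at 0.76, -0.20, -0.37 and -0.49 in CD27 single positives. In double positives the values were 0.46, -0.42, 0.49, 0.00 and 0.85, and in CD11b single positives -0.33, 0.08, 0.30, -0.29 and -0.44. Every NK array was below both B cell arrays, and the subsets again overlapped. The difference was -2.24 ± 0.41, or 4.73-fold lower in NK cells (adjusted p = 0.00306, limma). It was -2.19 with the slide as a block (adjusted p = 0.0144) and -2.12 on the slide of the B cell arrays (adjusted p = 0.0403, limma). The call did not hold without B cell replicate 1 (-2.22) or without B cell replicate 2 (-2.27), although the size of the difference moved little. It did not hold with the donor label as a block either (-2.11, adjusted p = 0.293, limma). The donor block gives B cell replicate 1 no weight here, so it is no separate check from leaving that array out.

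SLC25A28, mitoferrin 2, the second mitochondrial iron importer, was also below both B cell arrays on all 18 NK arrays, but its difference did not pass the threshold. B cells gave 0.82 and 0.99. Double-low cells gave -1.09, -0.30, -1.23 and -1.74, and CD27 single positives -1.06, -0.95, -0.85 and -1.85. Double positives gave -0.60, -0.32, -0.71, 0.72 and -0.07, and CD11b single positives -1.57, -0.43, 0.16, -0.50 and -1.64. The highest NK array, double-positive replicate 4, is one of the 2 dimmest and came close to the lower B cell array. The difference was -1.72 ± 0.49 (adjusted p = 0.0608, limma). It passed the threshold without double-positive replicate 4 (-1.78, adjusted p = 0.0406, limma), without CD11b single-positive replicate 4 (-1.74, adjusted p = 0.0454) and on the slide of the B cell arrays (-1.75, adjusted p = 0.0470). It did not pass with the slide as a block (-1.85, adjusted p = 0.0586), with the donor label as a block (-2.31, adjusted p = 0.237) or without B cell replicate 1 (-1.80, adjusted p = 0.456) or 2 (-1.63, adjusted p = 0.507, limma). The pyrimidine nucleotide carrier SLC25A36 was the only other member below both B cell arrays on every NK array (B cells 1.26 and 1.60, NK arrays from -2.68 through a median of -0.05 to 1.20), with a difference of -1.62 ± 0.74 and an adjusted p of 0.205 in limma.

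**Figure D1:**
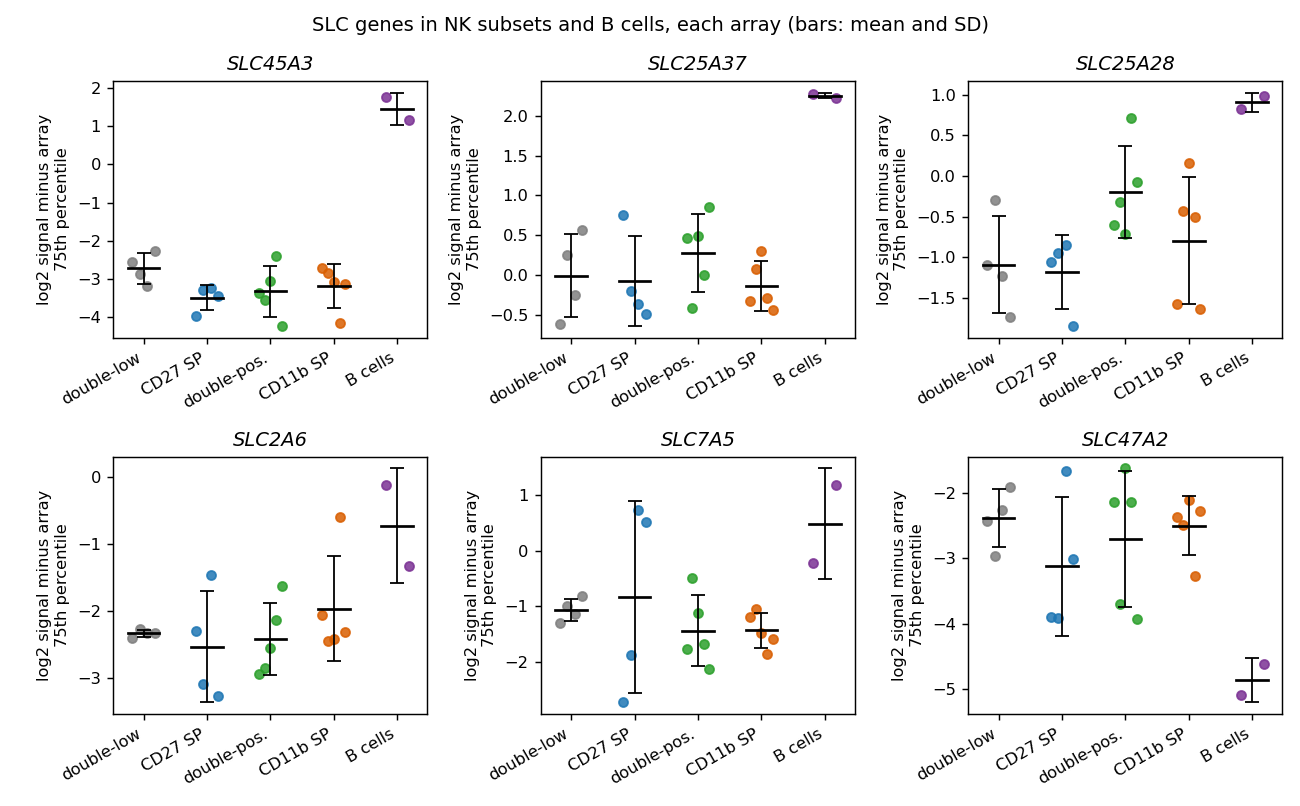
Log2 signal minus the 75th percentile of the array (y axis) for 6 SLC genes in the 4 NK subsets and in B cells (x axis; SP, single positive). Points are arrays, and black bars are the group mean and SD. SLC45A3 and SLC25A37 passed the test between NK and B cells; for these and for SLC25A28 every NK array lies below both B cell points, for SLC47A2 every NK array lies above them, and SLC2A6 and SLC7A5 overlap with B cells.

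In 13 members every NK array was higher than either B cell array, in 4 every one was lower, and 136 overlapped, so that 17 members did not overlap. Among all genes tested, 10.6% did not overlap, 7.45% above and 3.19% below (10.9% of those detected on all arrays). The 13 above were SLC13A1, SLC14A1, SLC16A3, SLC25A1, SLC2A2, SLC30A3, SLC35E4, SLC47A2, SLC4A10, SLC5A1, SLC6A12, SLC6A18 and SLC6A4, none of which passed the threshold. The number of members called also depended on single libraries and on the slide. It was 1 without either B cell array, and 8 (4 higher, 4 lower; 5.23% of members beside 5.83% of all genes) without CD11b single-positive replicate 4, the extra calls including SLC14A1, SLC2A2, SLC47A2, SLC25A28 and SLC2A6. On the slide of the B cell arrays alone 23 members were called, 18 of them higher, which is 15% of members beside 15.5% of all genes. With arrays weighted by their fit, 80 members were called, 68 of them higher (52.3% of members, 46.1% of all genes).

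**Figure D2:**
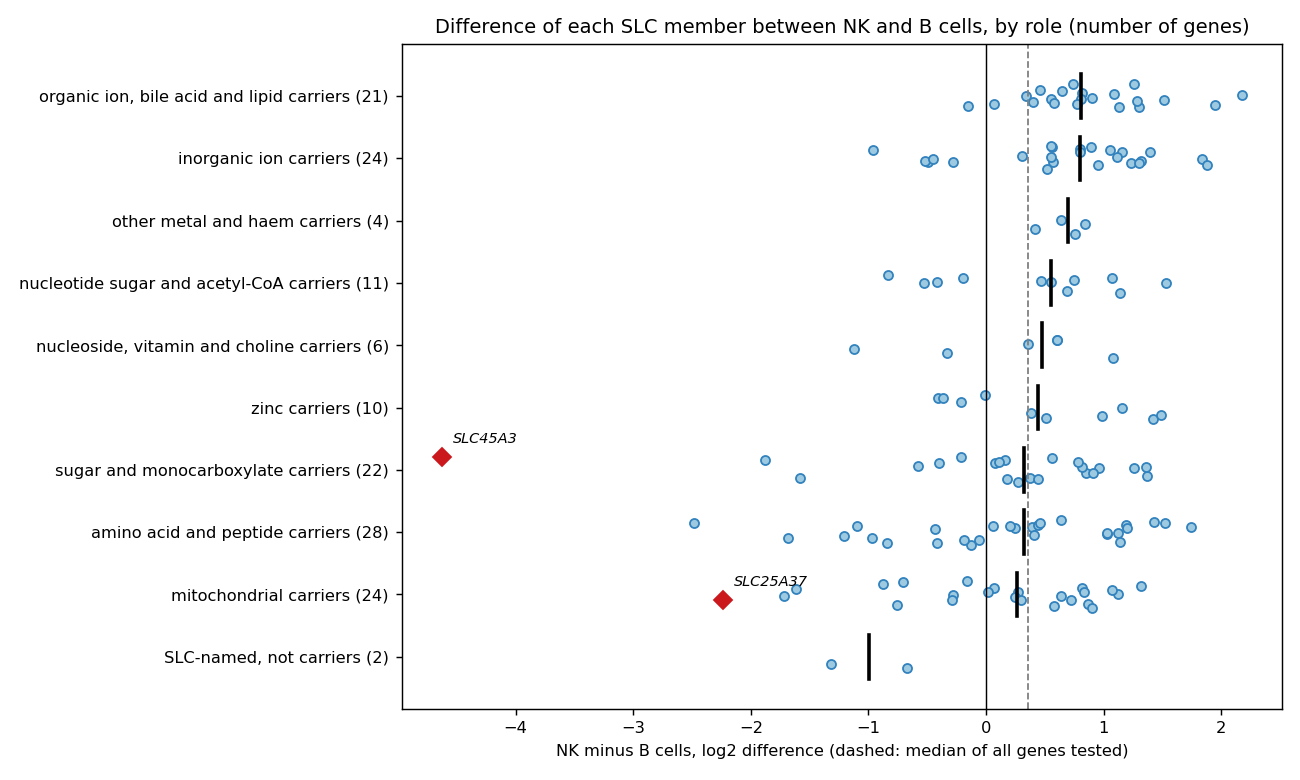
Difference between NK and B cells for each member (x axis, log2), by role (y axis, number of genes in brackets; SLC67A1, with no role, is not drawn). Each point is a gene, black ticks are role medians, the dashed line is the median of all genes tested (0.36) and red diamonds are the 2 members with an adjusted p under 0.05. Role medians of the carriers lie between 0.26 and 0.81, and both called genes lie at the left edge of their group.

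Amino acid and peptide carriers supply protein synthesis and redox balance. Of 28 members 17 were positive in the NK minus B difference, with a median of 0.32, and none was called (7 higher and 1 lower at an unadjusted p under 0.05 in limma). The member of lowest p on the lower side was SLC7A5, which codes for LAT1, the exchanger for leucine and other large neutral amino acids. Its B cell values were -0.22 and 1.19. Double-low cells ran from -1.30 to -0.82, double positives gave -1.77, -0.49, -1.12, -1.68 and -2.12, and CD11b single positives -1.19, -1.05, -1.48, -1.85 and -1.58. CD27 single positives were split, with -2.72 and -1.87 in replicates 1 and 2 and 0.74 and 0.52 in replicates 3 and 4, and the last 2 arrays alone overlapped with B cells. The difference was -1.68 ± 0.65 (adjusted p = 0.146, limma), and -2.39 or -0.97 without B cell replicate 1 or 2.

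SLC6A4, the serotonin transporter, stood at -3.57 and -3.72 in B cells and from -3.14 through a median of -1.99 to -1.28 on NK arrays, a difference of 1.43 ± 0.43 (adjusted p = 0.0748, limma). SLC7A2, an arginine and lysine transporter, had the largest positive difference of this group, at 1.74 ± 0.76 (adjusted p = 0.189). Its lowest NK array, at -3.74, lay below the B cell values of -3.56 and -3.72. SLC38A3 and SLC38A11, both of the sodium-coupled neutral amino acid family, differed by 0.64 ± 0.41 and 0.25 ± 0.40 (adjusted p = 0.329 and 0.685, limma). Leucine-sensing genes and partners of the mTORC1 pathway, to which amino acid carriers signal, gave no call in 17 measured of 26 listed. LAMTOR5, a subunit of the lysosomal Ragulator complex, had the lowest p there, with a difference of 1.63 ± 0.58 (adjusted p = 0.119, limma). Of 9 measured genes of the amino acid stress response none was called, and asparagine synthetase (ASNS) differed by -2.47 ± 1.23 (adjusted p = 0.236). The 5 measured glutamine genes were all negative, none called, with GLUL, glutamine synthetase, at -1.04 ± 0.65 (adjusted p = 0.324).

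SLC66A2, a member of the PQ-loop family that includes lysosomal amino acid exporters, varied most over the NK arrays, with an SD of 2.10 beside a median SD of 0.72 over the members. It was -2.76 in double-low replicate 4, -1.85 in CD27 single-positive replicate 4, -3.42 in double-positive replicate 4 and -3.42 in CD11b single-positive replicate 5. The other NK arrays ran from -0.55 to 3.26, and B cells gave 3.24 and 2.60. The 2 dimmest arrays are thus among its 4 lowest. Its NK minus B difference was -2.48 ± 1.45 (adjusted p = 0.297, limma). A second probe of SLC66A2 gave -2.31 and another 0.82, the opposite direction, so its level is uncertain. The other members with a wide spread over NK arrays were SLC3A1 (SD 1.73), SLC38A5 (1.56), SLC15A5 (1.52) and SLC25A32 (1.46), and that with the least was the zinc exporter of the secretory pathway SLC39A7 (0.39).

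Sugar and monocarboxylate carriers bring in hexoses and exchange lactate and pyruvate. Of 22 members 16 were positive (median 0.32), with SLC45A3 as the only call. SLC2A6, GLUT6, a hexose carrier of lysosomal membranes, gave -0.12 and -1.33 in B cells. Double-low cells gave -2.40, -2.27, -2.33 and -2.32, CD27 single positives -2.30, -3.08, -1.46 and -3.27, double positives -2.93, -2.85, -2.55, -2.13 and -1.63, and CD11b single positives -2.05, -2.45, -2.41, -0.59 and -2.31. CD11b single-positive replicate 4 was the single NK array not below both B cell arrays. The difference was -1.58 ± 0.53 (adjusted p = 0.0999, limma), and a second probe gave -1.86 (adjusted p = 0.0784). Without B cell replicate 1 it was -0.98 and without replicate 2 -2.19. SLC16A1, the lactate and pyruvate carrier MCT1, was named after its values were seen. It stood at -0.23 and -0.61 in B cells and from -3.76 through a median of -2.75 to 0.91 on NK arrays, with 16 of 18 below both (-1.88 ± 0.85, adjusted p = 0.200, limma). SLC16A3, the lactate exporter MCT4, ran the other way, with B cells at 1.16 and 1.28 and every NK array higher, from 1.38 through 1.89 to 3.23 (0.85 ± 0.44, adjusted p = 0.247).

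The glucose carrier of liver SLC2A2 was above both B cell arrays on every NK array (-2.30 to -0.38, against -2.69 and -2.61), with a difference of 1.26 ± 0.40 (adjusted p = 0.0844, limma). Of 11 measured genes of glycolysis and lactate use, 8 were negative and none was called. PDK1, the kinase that holds back pyruvate dehydrogenase, differed by -2.45 ± 0.74 (adjusted p = 0.0764, limma) and PKM, pyruvate kinase, by -2.14 ± 0.82 (adjusted p = 0.143).

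Mitochondrial carriers of the SLC25 family had 15 of 24 positive differences (median 0.26), SLC25A37 as the only call, and 2 higher and 3 lower at an unadjusted p under 0.05 in limma. SLC25A1, which exports citrate for lipid synthesis, was above both B cell arrays in all NK arrays (-2.07 through -1.10 to 0.14, against -2.61 and -2.23; 1.32 ± 0.45, adjusted p = 0.110, limma). SLC25A3, the phosphate carrier, and SLC25A5, an ADP/ATP carrier, differed by 0.07 ± 0.47 and -0.88 ± 0.66 (adjusted p = 0.928 and 0.397, limma), and the sign of the first changed with the scaling. Of 11 measured genes of the import machinery and channels that work with these carriers, none was called. The calcium uniporter pore MCU was positive at 1.19 ± 0.37 (adjusted p = 0.0769, limma) and TIMM22, of the import machinery, negative at -1.99 ± 0.92 (adjusted p = 0.209). Of 6 measured genes of iron and haem handling none was called, and none had an unadjusted p under 0.05 in this comparison. STEAP3, an iron reductase, differed by 0.57 ± 0.43 (adjusted p = 0.401, limma).

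Inorganic ion carriers set pH, chloride, phosphate and calcium. They had 19 of 24 positive differences (median 0.80), no call, and 9 higher at an unadjusted p under 0.05 in limma. The sodium/proton exchanger SLC9A5 had the largest, 1.88 ± 0.81 (adjusted p = 0.185), with double-low replicate 4 at 2.04 and CD11b single-positive replicate 5 at 1.36 as its highest arrays against -2.41 and -2.59 in B cells. The anion exchanger SLC4A2 ran from 2.91 through 4.16 to 4.98 in NK cells and stood at 3.47 and 3.42 in B cells (0.55 ± 0.41, adjusted p = 0.403, limma). The sodium bicarbonate cotransporter SLC4A7 was at the other end (-0.96 ± 0.70, adjusted p = 0.386).

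Zinc carriers, which lower (SLC30) or raise (SLC39) cytosolic zinc, were positive in 6 of 10 (median 0.44; none called, 3 higher at an unadjusted p under 0.05 in limma). SLC30A3, known for loading zinc into synaptic vesicles, stood at -2.77 and -2.82 in B cells and from -2.35 through -1.18 to -0.54 in NK cells (1.49 ± 0.47, adjusted p = 0.0828, limma). SLC39A7 showed -0.01 ± 0.36 (adjusted p = 0.989). The 4 other metal and haem carriers were all positive and none was called. SLC11A1, the phagosomal metal exporter NRAMP1 of macrophages, differed by 0.84 ± 0.57, the copper importer SLC31A1 by 0.76 ± 0.48, and the haem carrier SLC48A1 by 0.42 ± 0.40 (adjusted p = 0.355, 0.331 and 0.498, limma). Without B cell replicate 1 or 2, SLC31A1 was 1.18 or 0.34 and SLC48A1 0.81 or 0.04. The 3 measured genes of the zinc response gave no call.

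Of 11 nucleotide sugar and related carriers of the Golgi, 7 were positive (median 0.55; none called). SLC35E4, an orphan of that family, was above both B cell arrays in every NK array (-0.76 through 0.46 to 2.03, against -1.15 and -0.99; 1.53 ± 0.50, adjusted p = 0.0940, limma), and SLC35H1 was the lowest (-0.83 ± 0.40, adjusted p = 0.226). The UDP-galactose carrier SLC35A2 differed by 0.75 ± 0.57, and its second probe by -0.78. Of 6 nucleoside, vitamin and choline carriers 4 were positive (median 0.48). They included the folate carrier SLC46A1 at 1.08 ± 0.45 (adjusted p = 0.175) and, on the negative side, the riboflavin carrier SLC52A2 at -1.12 ± 0.74 (adjusted p = 0.340, limma).

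Organic ion, bile acid and lipid carriers had 20 of 21 positive differences, with a median of 0.81. None was called, and 5 were higher at an unadjusted p under 0.05 in limma. Of all 12384 genes tested, 7320 were positive. SLC47A2, the kidney proton/organic cation exporter MATE2, came closest to the threshold. It stood at -5.10 and -4.62 in B cells. Double-low cells gave -2.43, -2.96, -2.25 and -1.90, CD27 single positives -3.89, -3.92, -1.66 and -3.01, double positives -2.14, -3.70, -1.62, -2.13 and -3.93, and CD11b single positives -2.36, -2.49, -2.10, -3.27 and -2.27. No NK array overlapped with B cells, and the difference was 2.18 ± 0.60 (adjusted p = 0.0547, limma). It passed with the slide as a block (2.86, adjusted p = 0.0102), on the slide of the B cell arrays (2.83, adjusted p = 0.0404), and when any of 3 arrays was left out: double-positive replicates 2 (2.25, adjusted p = 0.0475) and 5 (2.26, adjusted p = 0.0335) and replicate 4 of CD11b single positives (2.23, adjusted p = 0.0378, limma). It did not pass with quantile normalization (1.68, adjusted p = 0.156), normexp (1.46, adjusted p = 0.150), the donor label as a block (1.84, adjusted p = 0.555) or without B cell replicate 1 (1.94, adjusted p = 0.546) or 2 (2.42, adjusted p = 0.380, limma). The urea transporter SLC14A1, known for red cells and kidney, had a difference of 1.95 ± 0.63 (adjusted p = 0.0892), with B cells at -3.34 and -3.24 and NK arrays from -2.89 through -1.31 to 0.09. SLC51B, a subunit of the bile acid exporter of ileum, had a difference of 1.26 ± 0.52 (adjusted p = 0.165).

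SLC47A2 and SLC51B belong to a set of members known for other organs. A list of 31 members known for kidney, intestine, liver, nerve, muscle or fat, written after values had been seen and used only as a description, had a median difference of 1.13. Of these 29 were positive, beside 7320 of all 12384 genes tested. An unadjusted p under 0.05 was found for 14 (45.2%, beside 22.7% of all genes and 23% of the other members), and none was called in limma. The other 122 members had a median of 0.43. Of 8 marker lists of other cell types, 7 had a positive median. The median NK minus B difference was 0.77 over 9 measured neutrophil markers, 0.95 over 4 erythroid, 0.96 over 6 platelet and 1.24 over 11 stromal and endothelial markers, with no marker of these 4 lists called in limma and 9 higher and 1 lower at an unadjusted p under 0.05. It was 1.02 over 11 monocyte markers (none called), 1.69 over 6 T cell markers (1 called higher) and 0.64 over 6 dendritic cell markers (1 called lower). Plasma cell markers went the other way, with a median of -1.51 over 7 and 1 called lower. For the stromal markers, each gene was centred on its mean over all 20 arrays, and the genes were averaged on each array. That average ran from -0.15 to 1.36 in double-low cells and from -0.36 to 1.16 in CD11b single positives. It ran from -0.86 to 0.61 in double positives, from -1.04 to 0.12 in CD27 single positives and from -1.22 to -0.99 in B cells. In B cells 3 of the 11 were well above background on no array. The B cell arrays were also among the brightest, with 75th percentiles of 1650.1 and 1449.0. The part of other cells, of array brightness or of signal shared by dim probes in the positive differences was not tested. In bulk samples, fewer cells of a type and less RNA per cell cannot be told apart.

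**Figure D3:**
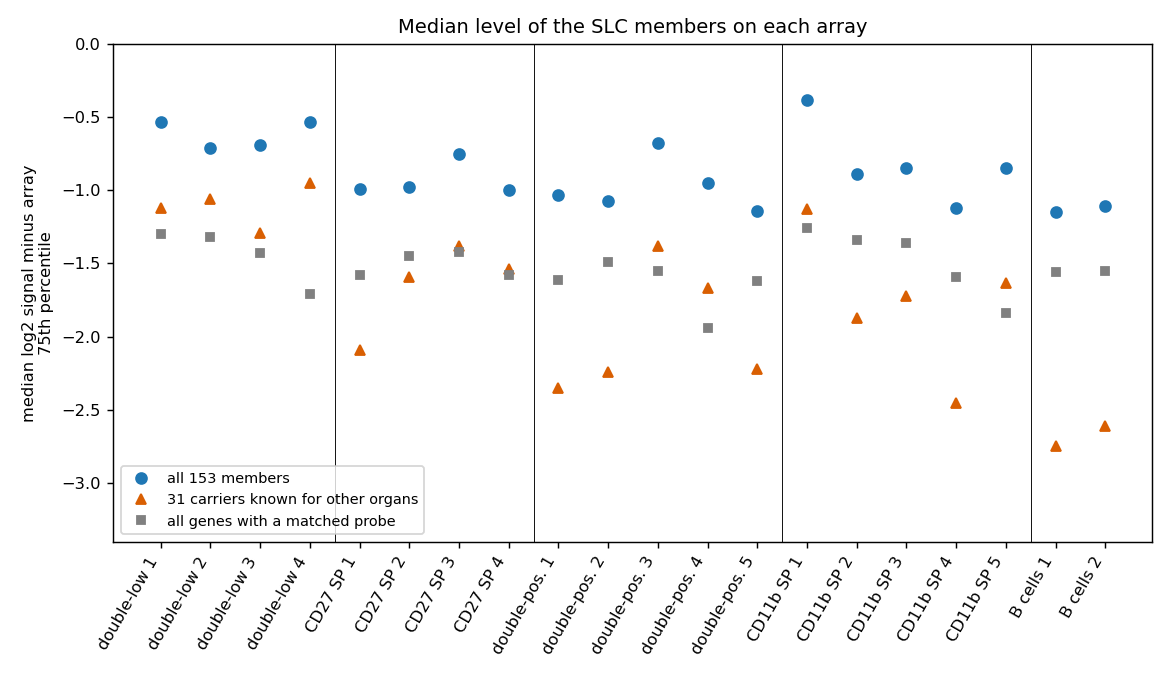
Median log2 signal minus the 75th percentile of the array (y axis) on each of the 20 arrays (x axis, by group and replicate), over the 153 members (circles), the 31 members known for other organs (triangles) and all genes with a matched probe (squares). The 31 carriers lie lowest in the 2 B cell arrays (-2.75 and -2.61) and highest in double-low replicate 4 (-0.95), while the medians of all genes lie between -1.94 and -1.26.

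The detection rule removed genes that were at background in some arrays, so members cannot show a loss to background. Of the 108 SLC genes outside it, 104 were tested between NK and B cells, and 6 were called, 4 lower and 2 higher (5.77%, beside 2.92% of all genes tested). These shares are not of like genes. All genes tested include the 7562 detected on all arrays, of which 164 (2.17%) were called, out of 362 called in all. The share over the remaining genes alone was not computed, and no excess is read from the 5.77%. SLC15A2 and SLC15A3, proton-coupled carriers of dipeptides and, for SLC15A3 in lysosomes, of histidine, were both lower in NK cells. SLC15A2 stood at 0.69 and -0.49 in B cells and from -8.12 through -6.86 to -3.95 in NK cells, where 2 of 18 arrays were well above background (-6.56 ± 0.77, adjusted p = 3.04e-05, limma). With most NK arrays not well above background, the size of that difference depends on the background: it was -3.96 with normexp background correction and between -7.15 and -3.96 over all alternatives. SLC15A3 stood at 0.76 and 1.23 in B cells and from -5.96 through -4.86 to -1.12 in NK cells, with 11 of 18 arrays well above background (-5.62 ± 0.91, adjusted p = 0.00112). None of the 18 NK arrays overlapped with B cells for either gene. SLC15A2 kept its call in all alternatives run, and SLC15A3 lost it without B cell replicate 2 (-5.39, adjusted p = 0.0818, limma).

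The other calls were nearer the threshold and each rested on both B cell arrays or on 1 of them. SLC27A3, an acyl-CoA synthetase, was lower in NK cells, with a difference of -3.59 ± 0.70 (adjusted p = 0.00545, limma), a size that is uncertain because only 3 of 18 NK arrays were well above background. SLC7A8, LAT2, a neutral amino acid exchanger, was lower as well, with a difference of -2.54 ± 0.66 (adjusted p = 0.0440; 17 NK arrays). The concentrative nucleoside transporters SLC28A1 and SLC28A3 were higher by 2.83 ± 0.64 (adjusted p = 0.0191) and 2.45 ± 0.66 (adjusted p = 0.0484, limma), with 18 NK arrays and 1 B cell array well above background in each case. Without B cell replicate 1 the differences were -3.49 for SLC27A3, -2.54 for SLC7A8, 1.84 for SLC28A1 and 2.99 for SLC28A3 (adjusted p = 0.192, 0.439, 0.551 and 0.259, limma). With quantile normalization SLC28A1 and SLC28A3 lost the call (2.34 and 1.90, adjusted p = 0.0548 and 0.120), and with normexp background correction SLC27A3 and SLC28A3 did (-1.44 and 1.46, adjusted p = 0.181 and 0.146, limma). Without B cell replicate 2 they were -3.70 for SLC27A3, -2.54 for SLC7A8 and 1.91 for SLC28A3 (adjusted p = 0.151, 0.439 and 0.560), while SLC28A1 kept its call. With the donor label as a block all 4 calls were lost: SLC27A3 was -2.80, SLC7A8 -3.02, SLC28A1 1.45 and SLC28A3 2.75 (adjusted p = 0.259, 0.237, 0.598 and 0.393, limma). SLC7A8 and SLC28A3 also lost the call without single NK arrays, 7 and 14 of them respectively. With the mean of the probes of each gene, SLC7A8 lost it too (-1.96, adjusted p = 0.105, limma).

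For SLC genes with no B cell array well above background only a bound on the fold can be given. It sets the NK mean against the mean over the B cell arrays of the higher of 2 values, the lowest signal among probes well above background and the signal of the probe itself. SLC24A3, a calcium exchanger, was at least 9.42-fold higher in NK cells, with 16 NK arrays well above background (adjusted p = 0.0720, limma). The bounds were at least 3.03-fold for SLC44A3 and at least 2.64-fold for the thiamine transporter SLC19A3 (adjusted p = 0.0742 and 0.0629, limma), so none of these passed the test. At the edge of the rule, the members with the dimmest single array were SLC38A5 (lowest array 16.5 units), SLC5A7 (15.9) and SLC7A10 (15.9). Just outside, with 19 of 20 arrays well above background, were SLC25A14 (6.5 units), SLC25A38 (8.4), SLC35A1 (7.3), SLC38A2 (7.6) and SLC39A11 (3.1).

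Within NK cells, no member differed between subsets at an adjusted p under 0.05 in limma. This held for CD11b+ against CD11blo subsets (4 members at an unadjusted p under 0.05, 2.61%, beside 5.05% of all genes; 0.0164% of all genes, 2 in number, were called) and for CD27+ against CD27lo subsets (37 members, 24.2%, beside 22.1%). It also held for the CD27 by CD11b interaction (2 members, 1.31%, beside 1.44%), for CD11b single positives against CD27 single positives (8 members, 5.23%, beside 5.26%) and for any difference among the 4 subsets (13 members, beside 8.72% of all genes). In the last 3 comparisons and for CD27, 0% of the 12185 genes tested were called. Among genes detected on all arrays, the shares at an unadjusted p under 0.05 were 4.18% for CD11b (0.0264% called), 23.4% for CD27, 1.14% for the interaction and 5.75% between the single positives. The CD27 comparison had the most low p-values, 6 higher and 31 lower in CD27+ cells, and a median of -0.46 over the members and -0.37 over all genes. The median for CD11b was -0.13 in both sets. Within the first slide, where replicates 1 and 2 of all subsets stood, 23 members were called for CD27, 7 higher and 16 lower (15% of members, 11.3% of all genes). Array brightness moved with CD27 on that slide: the 75th percentile was 1313.5 to 1897.4 on its CD27+ arrays and 622.4 to 1060.6 on its CD27lo arrays, without overlap. On the second slide it was 817.9 to 1438.8 against 199.6 to 1395.9. Over the 18 NK arrays, the correlation of level with the log2 75th percentile had a median r of -0.28 over members and -0.14 over all genes. Of the members, 31 had an r below -0.5 and 7 above 0.5, with SLC7A11 at -0.52 and SLC38A1 at 0.52. The part of brightness in the CD27 differences was not tested. The median CD27 difference over the members was -0.81 within the first slide and -0.18 within the second, where no member was called.

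SLC7A11, which codes for xCT, the cystine/glutamate exchanger that feeds glutathione synthesis, had the lowest p for CD27. Double-low cells gave -0.69, -1.29, -0.55 and -0.51. CD27 single positives gave -2.38, -2.34, -2.58 and -2.49, and B cells -2.66 and -2.34. Double positives gave -2.12, -2.46, -0.27, -1.06 and -2.21, and CD11b single positives -0.08, -1.24, -1.24, -1.68 and -0.91. CD27 single positives lay together at the level of B cells and did not overlap with either CD27lo subset. Double positives spread over both levels. The difference was -1.14 ± 0.32 between CD27+ and CD27lo cells (unadjusted p = 0.00229, adjusted p = 0.198, limma) and 1.42 ± 0.46 between CD11b and CD27 single positives (adjusted p = 0.813). With the slide as a block the first was -1.14 (adjusted p = 0.151), within the first slide -1.50 (adjusted p = 0.0494) and within the second -0.52 (adjusted p = 1 in limma).

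SLC38A1, SNAT1, a sodium-coupled importer of glutamine and alanine, ran the other way. CD27 single positives gave 2.99, 2.72, 2.84 and 1.91 and double positives 2.71, 2.70, 1.26, 2.55 and 3.04. Double-low cells gave 0.61, 1.39, 2.18 and 0.07, and CD11b single positives -0.27, 1.37, 2.21, 2.73 and -0.93. The groups overlapped, most of all through CD11b single positives, and B cells (2.90 and 3.09) stood near the top of the CD27+ arrays. The difference for CD27 was 1.49 ± 0.46 (adjusted p = 0.198, limma). It was larger within the first slide (adjusted p = 0.0489, limma) and 0.15 within the second.

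SLC20A1, the sodium-phosphate importer PiT1, stood at 1.13, 1.53, 2.14 and 1.23 in double-low cells, against 2.99, 3.37, 2.57 and 2.07 in CD27 single positives. Double positives ran from 2.37 to 3.16, and CD11b single positives gave 0.31, 2.63, 1.72, 2.62 and 2.52. Double-low and CD27 single-positive arrays overlapped only between 2.07 and 2.14. The CD27 difference was 1.04 ± 0.32 (adjusted p = 0.198, limma), with 1.72 within the first slide (adjusted p = 0.0508, limma) and 0.65 within the second.

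SLC25A3, the carrier that brings phosphate into mitochondria for ATP synthesis, had the lowest p between the single positives. CD27 single positives gave 3.33, 2.84, 2.12 and 2.75 and CD11b single positives 0.47, 1.36, 1.16, 1.48 and 1.57, with no overlap. Double-low cells gave 1.42, 0.77, 1.27 and 2.70 and double positives 2.51, 2.44, 1.12, 1.18 and 2.19. The difference between CD11b and CD27 single positives was -1.55 ± 0.43 (unadjusted p = 0.00193, adjusted p = 0.813, limma), and that for CD27 was 0.95 ± 0.31 (adjusted p = 0.198). Within the first slide the CD27 difference was 1.77 (adjusted p = 0.0489, limma) and within the second 0.21. The 5 other probes of SLC25A3 gave CD27 differences between 0.95 and 1.06.

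**Figure D4:**
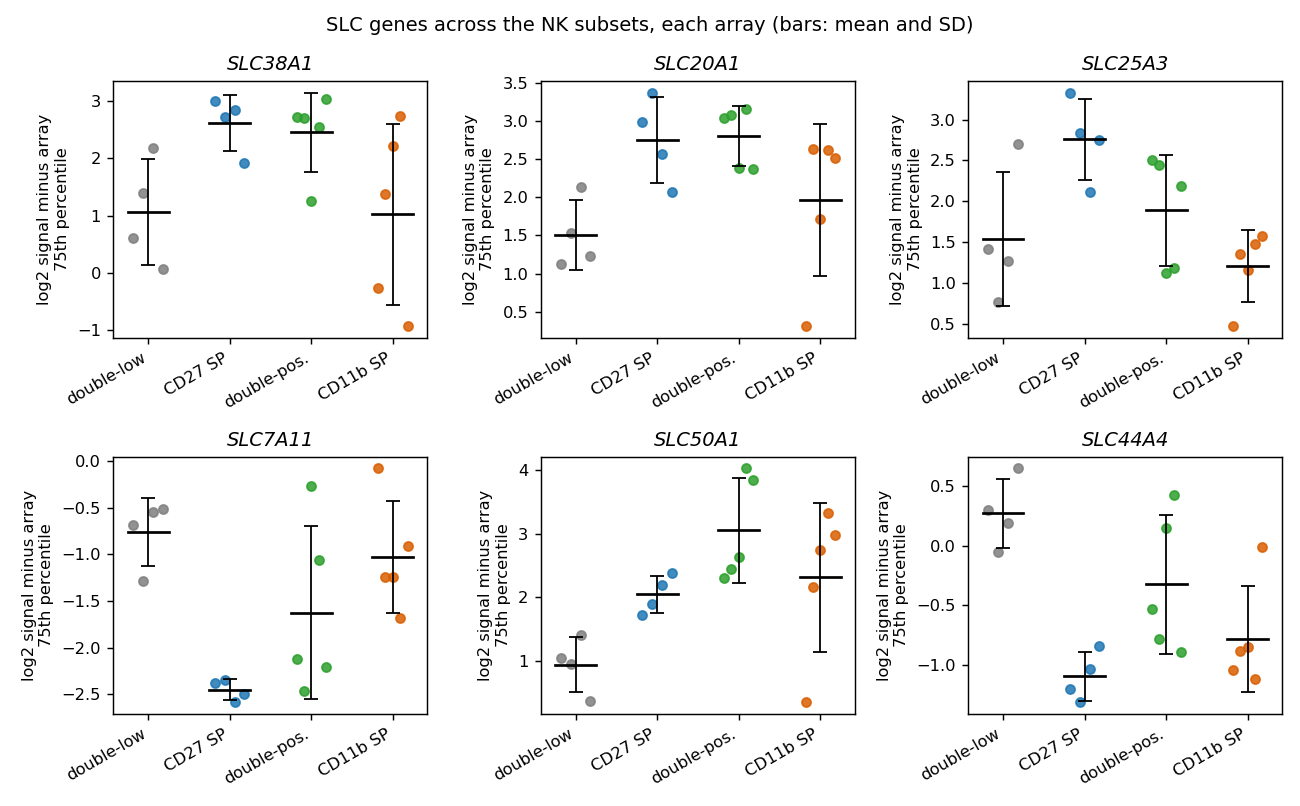
Log2 signal minus the 75th percentile of the array (y axis) for 6 members in the 4 NK subsets (x axis; SP, single positive). Points are arrays and black bars the group mean and SD. For SLC7A11 the 4 CD27 single-positive arrays lie between -2.58 and -2.34, below all double-low and CD11b single-positive arrays; the other panels show wider or overlapping groups, and no gene passed the test between subsets.

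SLC50A1, a sugar transporter of the SWEET family, had the lowest p for CD11b. Double-low cells gave 1.05, 0.95, 1.41 and 0.37 and CD27 single positives 1.72, 1.90, 2.19 and 2.38. Double positives gave 2.30, 2.45, 2.63, 4.02 and 3.84, and CD11b single positives 0.36, 2.16, 2.74, 3.32 and 2.98. Double-low cells lay below both CD27+ subsets without overlap, and CD11b single-positive replicate 1 stood at their level. The difference for CD11b was 1.18 ± 0.37 (adjusted p = 0.903, limma) and for CD27 0.92 ± 0.37 (adjusted p = 0.207). The third slide held only CD11b+ arrays, replicates 4 and 5 of both CD11b+ subsets, and these gave the highest values. CD11b and slide are thus partly confounded. With the slide as a block the CD11b difference was 0.68, and it was 0.41 within the first slide and 1.09 within the second. Of 3 other probes, 2 gave CD11b differences of 0.96 and 1.21, and the third -0.44.

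SLC44A4, of the choline transporter-like family, had the lowest p for the interaction, that is, for a CD27 difference that depends on CD11b. Double-low cells gave 0.30, -0.05, 0.19 and 0.65 and CD27 single positives -1.20, -1.31, -1.03 and -0.84. Double positives gave -0.53, -0.78, 0.15, 0.43 and -0.89 and CD11b single positives -1.04, -0.88, -0.85, -1.12 and -0.01. Among CD11blo cells the CD27lo arrays were all above the CD27+ arrays. Among CD11b+ cells the 2 groups overlapped. The interaction was 1.83 ± 0.52 (unadjusted p = 0.0023, adjusted p = 1 in limma), 1.69 within the first slide and 2.35 within the second.

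By role, CD27 differences were negative for 18 of 28 amino acid carriers, 19 of 24 ion carriers, 16 of 24 mitochondrial carriers, 19 of 22 sugar and monocarboxylate carriers and 19 of 21 organic ion carriers. None was called in limma, and the medians of these 5 groups ran from -0.54 in organic ion to -0.32 in mitochondrial carriers, beside -0.37 over all genes. Negative CD27 differences were found in 8047 of all 12185 genes tested. Further members of low p on the negative side were SLC17A2, a phosphate and organic anion carrier (-0.89 ± 0.28, adjusted p = 0.198, limma), the zinc importer SLC39A4 (-0.82 ± 0.26, adjusted p = 0.198), the mitochondrial ATP-Mg/phosphate carrier SLC25A23 (-0.82 ± 0.27, adjusted p = 0.199) and the sugar carrier SLC45A1 (-0.86 ± 0.29, adjusted p = 0.199). On the positive side was also the mitochondrial S-adenosylmethionine carrier SLC25A26 (1.36 ± 0.55, adjusted p = 0.211, limma). The 31 members known for other organs had a CD27 median of -0.58, with 29 of 31 negative. Neutrophil, erythroid, platelet and stromal markers had CD27 medians of -0.60, -0.80, -0.52 and -0.85, and monocyte, dendritic, plasma and T cell markers of -0.52, -0.64, -0.17 and 0.09. Their part in the negative differences was not tested.

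For CD11b, the members of lowest p besides SLC50A1 were SLC35H1 on the higher side (0.60 ± 0.26) and the organic anion importer SLC22A6 (-0.78 ± 0.29) and the choline importer SLC5A7 (-1.24 ± 0.52, but 0.51 within the second slide) on the lower, all with an adjusted p of 0.944 in limma. Between the single positives, the anion exchanger SLC26A6 was at 1.06 ± 0.40 and the mitochondrial folate and FAD carrier SLC25A32 at -1.94 ± 0.85 (adjusted p = 0.813 for both, limma). SLC35A5 had an interaction of -1.89 ± 0.78 (adjusted p = 1 in limma). None of the genes of the nutrient, glycolysis, glutamine, zinc, iron or mitochondrial import lists was called between NK subsets. Among them, the outer membrane channel VDAC3 was at 1.55 ± 0.39 for CD27 (unadjusted p = 0.000909, limma) and aldolase C (ALDOC) at -1.22 ± 0.34 (unadjusted p = 0.00205, limma).

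Carriers outside the SLC names, from a list of 25 with 19 measured, gave 1 call between NK and B cells, TMEM165, a Golgi manganese and calcium transporter, lower in NK cells (-1.77 ± 0.47, adjusted p = 0.0444, limma). SLC2A1, SLC2A3, SLC3A2 and SLC1A5, well-known carriers of glucose and amino acids in lymphocytes, had no matched probe and are not analysed here. The members had 123 other probes, of which 90, in 59 genes, were well above background on all arrays. Of these 90, 82 gave the NK minus B difference the sign of the probe used.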

How the data were processed

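Total RNA (50 ng) was amplified by isothermal linear amplification and 400 ng was labelled with Cy3 for 20 one-colour Agilent arrays, per the labels' protocols. Feature Extraction 10.7.1.1 and Partek are named in the submitters' processing notes. The authors' deposited scanner files hold processed signal as intensity, per the file headers. The deposited value table holds log2 values with a median of 8.02 in each column, each of which matched its own array best (lowest r 0.9937); its normalization is not stated, and it was used as an alternative.

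Spots of 1 probe were averaged, and log2 signal was centred on each array's 75th percentile. Of 58659 probes, 20417 (34.8%) matched a RefSeq symbol of the T2T-MFA8v1.1 gene table through their accession. Differences were tested with limma 3.58.1 in R 4.3.3 (lmFit, eBayes with trend and robust options) over all genes with a probe well above background on at least 2 arrays (NK against B cells, all 20 arrays, each subset weighted equally) or 4 arrays (the 18 NK arrays), with Benjamini-Hochberg adjustment over all of them and a threshold of 0.05. The fit was checked on simulated data, made by adding known differences to residuals shuffled within each gene. Shuffling removes the structure of donor, slide and array brightness, so the check cannot speak to these. Errors are limma standard errors. Roles follow the SLC family number, so SLC5A7 and SLC6A4 stand with their families.

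Genes named were those that passed; where fewer than 5 passed in a direction, the 5 of lowest p there; in each role the 2 of highest signal and the largest difference each way; the 5 largest and smallest SDs; and genes just inside or outside the detection rule or called outside it. From other lists up to 4 of lowest p were eligible, and not every eligible gene is printed. SLC16A1 is among the largest differences but was picked out after its values were seen, as was TMEM165 from its list. Members and lists were chosen with earlier results of these data known.

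Alternatives were quantile and detected-probe scaling, normexp (offset 50, on the median signal, since the files hold no mean signal), the deposited values, no filter, every probe, the mean of probes, blocks for slide, donor label and replicate number, single slides, array weights and leaving out arrays. No sequences are shown.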

Additional observations from a re-analysis of the deposited data

Results flagged for a closer look

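Of 264 groups of 4 or 5 NK arrays tested for named members, 24, in 21 genes, held 1 array that stood far from the others for the group's size. For groups not chosen by their values, chance gives about 1 in 20. Named members were chosen partly by spread, dimmest array and low p in these data. That rate is thus no baseline for them. Levels are log2 signal minus the 75th percentile of the array, with the range of the other arrays of the group behind each. Among double-low arrays stood SLC11A1 at 1.77 in replicate 4 (others 1.19 to 1.27), SLC14A1 at -1.31 in replicate 1 (others -0.71 to -0.68) and SLC27A1 at 2.35 in replicate 4 (others 2.74 to 2.81). In the same subset stood SLC31A1 at 0.21 in replicate 1 (others 0.73 to 0.76), SLC39A5 at 1.47 in replicate 3 (others 2.16 to 2.24) and SLC7A10 at -0.60 in replicate 4 (others -2.49 to -2.40). Among CD27 single-positive arrays stood SLC15A5 at -5.06 in replicate 2 (others -3.56 to -3.27), SLC16A3 at 2.19 in replicate 3 (others 1.56 to 1.64) and SLC39A5 at -0.30 in replicate 1 (others 1.22 to 1.46). In the same subset stood SLC45A1 at -4.55 in replicate 1 (others -3.21 to -3.02) and SLC7A2 at -0.90 in replicate 1 (others -2.17 to -2.06). Among double-positive arrays stood SLC16A3 at 3.23 in replicate 4 (others 1.38 to 1.85), SLC35E4 at 1.07 in replicate 4 (others -0.27 to 0.05) and SLC38A1 at 1.26 in replicate 3 (others 2.55 to 3.04). In the same subset stood SLC5A7 at -0.44 in replicate 3 (others -4.28 to -3.50) and SLC7A10 at -2.26 in replicate 3 (others -3.90 to -3.50). Among CD11b single-positive arrays stood SLC24A4 at 0.60 in replicate 1 (others -0.53 to -0.28), SLC25A26 at -4.68 in replicate 5 (others -1.36 to -0.71) and SLC2A6 at -0.59 in replicate 4 (others -2.45 to -2.05). In the same subset stood SLC44A4 at -0.01 in replicate 5 (others -1.12 to -0.85), SLC45A3 at -4.15 in replicate 4 (others -3.12 to -2.71) and SLC4A1AP at -1.25 in replicate 5 (others 0.64 to 1.17). In the same subset stood SLC52A2 at -3.14 in replicate 5 (others -1.77 to -1.24) and SLC9A5 at 1.36 in replicate 5 (others -1.33 to -0.99). CD11b single-positive replicate 5 held 5 of these values, and the dimmest array, double-positive replicate 4, held 2.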

How the results depend on the processing

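Between NK and B cells, 2 members were called. The count was 1 with the donor label as a block (chosen after seeing the data), 5 with the slide as a block, 23 on the slide of the B cell arrays alone, 80 with array weights and between 1 and 8 when single arrays were left out. It stayed at 2 under quantile and detected-probe scaling, normexp, the deposited values, no filter, every probe and the mean of probes. With every probe tested, only the probe used for each gene entered that count. Another probe of the member SLC5A9, well above background on 17 arrays, was higher in NK cells there (4.09 ± 0.94, adjusted p = 0.0198, limma). For CD27 the count of 0 became 23 within the first slide and 66 with array weights (43.1% of members, 33.6% of all genes), and the test among 4 subsets gave 16 with array weights (10.5%, 7.85%); leaving out single arrays left 0 in every NK comparison. The CD27 median over members was -0.81 within the first slide and -0.18 within the second, and the CD11b median was 0.09 within the second slide. The median of all genes, NK minus B cells, was 0.36 in the main scaling, 0.18 with quantile normalization and 0.27 with the detected-probe percentile. The cause of these changes was not tested. Signs turned only for differences not called: SLC22A7 (-0.31 to 0.00 without single arrays, 0.20 donor block, 0.23 slide block, 0.28 slide of the B cell arrays, 0.00 without B cell replicate 1), SLC25A3 (-0.12 to 0.26 without single arrays, -0.08 normexp, -0.02 detected-probe percentile and mean of probes, -0.03 slide block, -0.10 slide of the B cell arrays, -0.03 without double-low replicate 4, -0.12 without B cell replicate 2) and SLC38A11 (-0.10 without B cell replicate 2 to 0.61 without B cell replicate 1). SLC39A7 was 0.86 with the donor block, 0.01 with the slide block and from -0.46 to 0.44 without single arrays; SLC4A7 was 0.02 and SLC50A1 0.08 with the donor block. For CD11b, SLC5A7 was 0.51 within the second slide and SLC6A6 0.00 within the first, and the interaction of SLC7A11 was -0.25 within the first slide. Replicate numbers do not mark the same animals throughout. Deviations of same-numbered arrays correlated with a median r of 0.22 (-0.30 to 0.42; other pairs -0.07), and 12 of 18 arrays correlated best with their own number. With the replicate number as a block, 0 members were called in each NK comparison. With 2 B cell arrays, and the dimmest arrays at a 75th percentile of 180.0 and 199.6, small differences cannot be resolved.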
